A study of Mus musculus with 6 samples.

Results

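The endothelial and blood-brain barrier genes described here are 35 genes, chosen by name: each row of the deposited expression table whose gene symbol is on a list of endothelial junction proteins, receptors, transporters, transcription factors and surface markers. All 35 were found, each in 1 row, among 30707 genes in the table. The study compared RNA from the hippocampus of mice that had received a virus knocking down SFRS8 (3 samples) with hippocampus that had received a control virus (3 samples). SFRS8 is an older name of Sfswap, an RNA-binding regulator of pre-mRNA splicing, and the series title places it in the splicing of synaptic genes and in memory. Both groups therefore carry a virus. The labels used here give no strain, age, sex, virus promoter or serotype, infected cell type or time after infection, and do not say that each library is its own animal. P-values therefore reflect only sample-to-sample spread, which could be technical.

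Endothelial cells line every vessel of the brain. In brain capillaries they are sealed by tight junctions, carry few vesicles, and move glucose, fatty acids and hormones with dedicated transporters while efflux pumps return foreign compounds to the blood; these properties make up the blood-brain barrier. The barrier is kept up by signals from pericytes, astrocyte endfeet and the Wnt pathway. Endothelial cells also answer inflammation by placing adhesion proteins on their surface that hold leukocytes.

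Expression is given as FPKM, fragments scaled to exon length and to the size of the library, so levels can be set side by side per length of transcript. The libraries behind the values held between 16622948 and 18097344 reads, and the members held between 22 and 9318 reads per sample. Sfswap itself stood at 16.7, 18.5 and 19.2 FPKM in control tissue, against 9.79, 11.3 and 9.58 after knockdown, with no overlap, which fits the labels (log2 fold change −0.77, adjusted p = 0.0432 by limma). All 12 hippocampal neuron markers on the list were detected in every sample, which alone cannot test the tissue label. Their log2 fold changes were negative in 10, and the list's median was −0.31. Of these, only Lct, which marks dentate granule cells, was called lower, from 7.66 ± 1.08 to 2.82 ± 0.918 FPKM (SD, n = 3).

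Endothelial transcripts stood higher in the knockdown hippocampus in nearly every role. Of the 35 genes, 32 had a positive log2 fold change, against 53.2% of the 14012 genes tested. In 26 of them every knockdown sample was above every control sample, which held for 18.0% of all genes tested, and in none was every knockdown sample below the controls, which held for 11.8% of all genes. The median log2 fold change was 0.45, against 0.02 over all genes tested, and the median ratio of group means was 1.58 against 1.02. Vcam1, Pecam1 and Ly6a rose, meaning that limma gave an adjusted p under 0.05 over all genes. That is 3 of 35, where 1.20% of all genes were called higher, and no member was called lower, where 0.228% of all genes were. Before adjustment 25 members had p under 0.05 in the higher direction (15.7% of all genes) and 0 in the lower (7.98%). These counts include genes that passed the filter only through their knockdown values. Sox17, Nos3 and Icam2 are such genes among the 32, the 26 and the 25, and Emcn is one among the 32. They are therefore no independent support for a rise.

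The 3 called members had an adjusted p of 0.0432 by limma, the lowest over all genes tested, which 86 genes shared. Several other members lay close to the threshold. Tjp1, Ocln and Cdh5 had an adjusted p of 0.05003, just outside it, and 19 members were higher at an adjusted p under 0.1 (7.02% of all genes). When reads recovered from the FPKM values were tested with limma's voom, 14 members were called higher (4.06% of the 12274 genes with whole reads). The count of 3 became 0 when control sample 1, control sample 2, control sample 3, knockdown sample 1 or knockdown sample 3 was left out, and 6 without knockdown sample 2. Over the whole table those fits called 0, 0, 8, 0 and 16 genes higher in that order. The fit without knockdown sample 2 called 160, against 168 with all samples. The exact two-sided permutation test over samples gave p = 0.1 for 26 members, the smallest that 3 samples against 3 allow. In bulk tissue, more endothelial cells in a sample and more RNA of these genes per endothelial cell cannot be told apart.

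**Figure D1:**
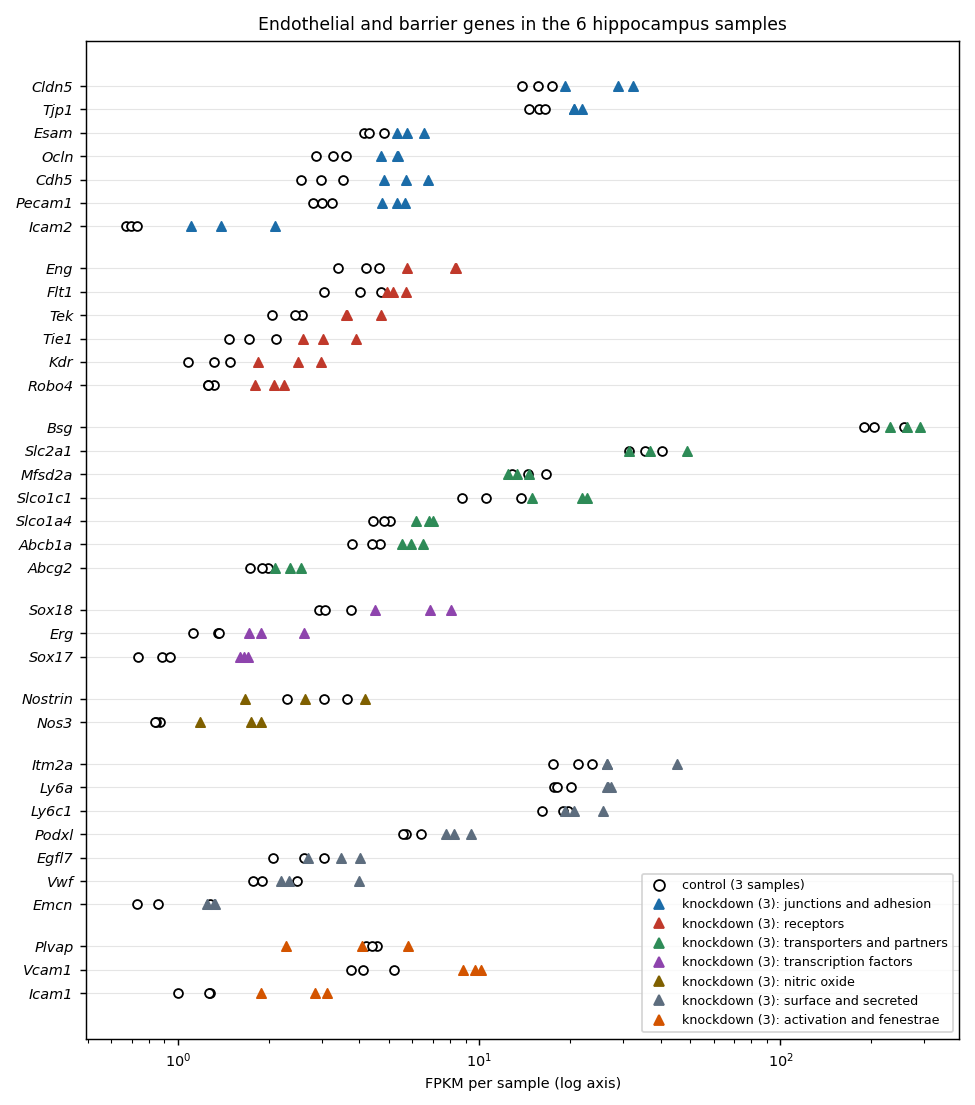
FPKM of the 35 genes in each sample on a log axis, grouped by role. Open circles are the 3 control samples and triangles the 3 knockdown samples. In 26 genes all triangles lie to the right of all circles. In the other 9 the ranges overlap: Slc2a1, Mfsd2a, Nostrin, Plvap, Bsg, Ly6c1, Egfl7, Emcn and Vwf.

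Junction and adhesion proteins had higher knockdown values throughout. All 7 genes of this role had groups that did not overlap, with log2 fold changes of 0.34 to 0.74 and a median of 0.55. Over all genes tested 18.0% were separated higher, and the counts of the roles that follow are to be read against this share. Icam2 here and Sox17 below passed the filter only through their knockdown values. Pecam1 (CD31), which joins neighbouring endothelial cells and is found on every vessel, stood at 3.25, 3.01 and 2.80 FPKM in control tissue, against 5.34, 4.75 and 5.66 after knockdown. Every knockdown sample was clear of the controls, and the spread within either group was small. Pecam1 (ENSMUSG00000020717, mm10 chromosome 11, 106654217 to 106750628, minus strand) rose 1.74-fold, with a log2 fold change of 0.64 (SE 0.09, adjusted p = 0.0432 by limma). Its adjusted p ran from 0.0238 to 0.194 over the alternatives. The call was lost without control sample 1, 2 or 3, knockdown sample 1 or knockdown sample 3. Those fits called 0 to 16 genes higher over the whole table. The log2 fold change of Pecam1 stayed between 0.59 and 0.70 whichever sample was left out.

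Cdh5 encodes VE-cadherin, the adherens junction protein that defines endothelium. It stood at 2.99, 2.56 and 3.54 FPKM in control tissue, against 5.69, 4.82 and 6.73 after knockdown, 1.90-fold higher. The groups were well separated, and the gene missed the threshold by a small margin (log2 fold change 0.74, SE 0.14, adjusted p = 0.05003 by limma). Cldn5, the claudin that seals the brain's tight junctions, stood at 13.9, 17.4 and 15.7 FPKM against 28.8, 19.2 and 32.3. Knockdown sample 2 lay just above the highest control, and without that sample Cldn5 was called (log2 fold change 0.93, adjusted p = 0.0423, against 0.71 and 0.0866 with all 6 samples).

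Ocln, or occludin, a tight junction protein that spans the membrane, stood at 2.87, 3.27 and 3.62 FPKM in control tissue, against 4.73, 5.36 and 5.31 after knockdown. Tjp1 (ZO-1), the scaffold that ties claudins and occludin to actin and is also made by other cells, stood at 15.8, 16.5 and 14.6 against 20.7, 20.6 and 21.9. Both had tight groups with a clear gap, at 1.58-fold and 1.35-fold. Esam, an immunoglobulin-type adhesion protein of endothelial junctions, stood at 1.33-fold (adjusted p = 0.102). Icam2, an adhesion protein carried by resting endothelium, was the lowest of all members in the controls, at 0.670, 0.697 and 0.731 FPKM, with 22 to 25 reads behind each value. Its knockdown values of 1.10, 2.09 and 1.39 FPKM varied more than its controls did (2.18-fold, adjusted p = 0.116).

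Receptors for vessel growth and stability all had separated groups. The 6 genes had log2 fold changes of 0.36 to 0.73, a median of 0.57 and no call over all genes. Eng, or endoglin, a coreceptor for BMP and TGF-beta ligands, stood at 4.20, 3.40 and 4.63 FPKM in control tissue, against 8.29, 5.74 and 8.35 after knockdown. Kdr, the main VEGF receptor of endothelium, stood at 1.08, 1.32 and 1.49 against 2.50, 1.84 and 2.97. In both genes knockdown sample 2 was the lowest of its group and still above the controls. Eng stood at 1.83-fold (adjusted p = 0.0638), and without knockdown sample 2 it was called (log2 fold change 0.88, adjusted p = 0.0480). Kdr stood at 1.88-fold (adjusted p = 0.0882).

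Tek (TIE2), the receptor for angiopoietins, stood at 2.58, 2.45 and 2.05 FPKM in control tissue, against 3.61, 3.63 and 4.72 after knockdown. Its orphan relative Tie1 stood at 2.11, 1.72 and 1.48 against 3.02, 2.59 and 3.90. Knockdown sample 3 was the highest and control sample 3 the lowest for this receptor pair, at 1.69-fold for Tek (adjusted p = 0.0638) and 1.79-fold for Tie1 (adjusted p = 0.0819). Robo4, a guidance receptor that stabilises vessels, had controls of 1.32, 1.26 and 1.26 FPKM and knockdown values of 2.08, 1.80 and 2.24 (adjusted p = 0.0851). Flt1, the VEGF receptor that binds ligand with high affinity and restrains signalling, had the narrowest gap of the receptors. Its highest control was 4.73 FPKM and its lowest knockdown value 4.95, at 1.34-fold (adjusted p = 0.172).

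Genes expressed in endothelium often carry binding sites of ETS factors such as Erg near their start. RefSeq promoter windows (build GRCm38.p6, 250 bases before to 50 after the start) were found for 22 members. The letters AGGAAG, 1 form of an ETS site, were searched on both strands. They were present in a window of 14 of the 22 (63.6%), against 38.4% of the 27025 genes with a window. Other forms of the site were not counted, so a window without these letters can still hold one. Pecam1, Vcam1 and Ly6a, the 3 called genes, are not among the 22. The SOX letters AACAAT were present in 4 members (18.2% against 12.2% of all genes) and the GATA letters AGATAA in 3 (13.6% against 12.7%). Matches of different motifs can overlap by a few letters. A match is a run of letters and was not shown to be bound. Shown here are 2 receptors whose windows hold 2 matches of AGGAAG each and 2 transporters, described below, whose windows hold 0. Capitals mark AGGAAG or its reverse complement. The windows are Eng chr2:32646345-32646644 (plus strand), Tie1 chr4:118489800-118490099 (minus strand), Slc2a1 chr4:119108495-119108794 (plus strand) and Mfsd2a chr4:122961139-122961438 (minus strand).
Eng: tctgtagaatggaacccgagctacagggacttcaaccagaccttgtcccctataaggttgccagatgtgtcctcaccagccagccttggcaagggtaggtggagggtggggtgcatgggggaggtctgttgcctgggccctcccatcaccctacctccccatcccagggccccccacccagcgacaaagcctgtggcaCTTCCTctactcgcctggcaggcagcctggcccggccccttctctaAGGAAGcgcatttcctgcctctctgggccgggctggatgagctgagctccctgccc
Tie1: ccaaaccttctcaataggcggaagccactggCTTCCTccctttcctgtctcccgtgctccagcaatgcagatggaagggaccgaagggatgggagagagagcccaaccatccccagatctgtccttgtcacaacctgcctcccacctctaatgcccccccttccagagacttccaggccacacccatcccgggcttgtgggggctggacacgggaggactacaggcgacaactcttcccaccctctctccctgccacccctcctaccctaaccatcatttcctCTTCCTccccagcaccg
Slc2a1: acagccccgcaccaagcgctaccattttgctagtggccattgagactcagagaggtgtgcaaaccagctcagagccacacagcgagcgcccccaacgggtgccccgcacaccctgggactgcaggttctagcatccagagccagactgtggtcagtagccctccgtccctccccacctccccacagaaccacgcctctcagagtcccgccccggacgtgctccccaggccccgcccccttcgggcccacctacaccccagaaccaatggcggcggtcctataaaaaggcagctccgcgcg
Mfsd2a: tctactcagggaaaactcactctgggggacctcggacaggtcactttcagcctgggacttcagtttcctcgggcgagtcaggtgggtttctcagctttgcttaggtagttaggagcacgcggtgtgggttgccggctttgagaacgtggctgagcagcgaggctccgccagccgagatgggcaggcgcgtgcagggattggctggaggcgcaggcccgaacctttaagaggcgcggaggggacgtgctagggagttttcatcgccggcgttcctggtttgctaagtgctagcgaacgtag

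Transcription factors of endothelial identity all had separated groups. Sox17, which acts in arterial endothelium, stood at 0.887, 0.938 and 0.735 FPKM in control tissue, against 1.65, 1.60 and 1.71 after knockdown. The knockdown values were nearly identical to each other, at 1.94-fold the control mean (log2 fold change 0.52, adjusted p = 0.0656). On 16.8% of its exon bases Sox17 is overlapped by a gene on the other strand, and the protocol records no step that keeps strands apart. Sox18, its relative in vessel and lymphatic development, stood at 2.94, 3.07 and 3.74 FPKM against 8.04, 4.49 and 6.87, which is 1.99-fold (adjusted p = 0.0717). Knockdown sample 2 was again the lowest of its group, and without it Sox18 was called (log2 fold change 0.99, adjusted p = 0.0423). Erg, an ETS factor that maintains endothelial junctions, stood at 1.36, 1.37 and 1.12 FPKM against 2.62, 1.72 and 1.89 (1.62-fold, adjusted p = 0.139).

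**Figure D2:**
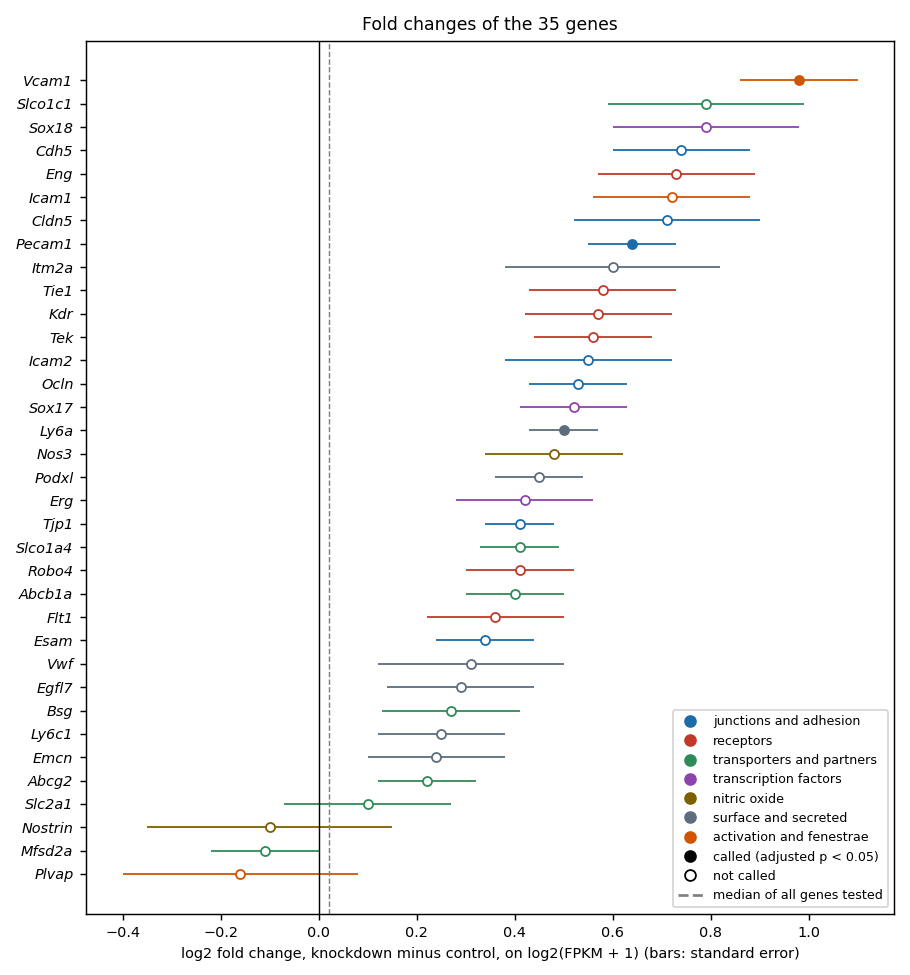
Log2 fold change of each of the 35 genes, knockdown minus control on log2(FPKM + 1), with its standard error from limma, coloured by role. Filled points are the 3 called genes (Vcam1, Pecam1, Ly6a), and the dashed line is the median of all genes tested at 0.02; only Mfsd2a, Nostrin and Plvap lie below 0.

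The transporters of the barrier were split. Among the 7 genes of this role 4 had separated groups and 3 overlapped, and the median log2 fold change of 0.27 was below that of the junction genes, although the difference between the roles was not tested. Slco1c1, the carrier of thyroxine, stood at 10.5, 8.79 and 13.8 FPKM in control tissue, against 22.7, 21.9 and 15.0 after knockdown. Control sample 3 and knockdown sample 3 were close together, and the other samples were far apart (1.80-fold, adjusted p = 0.0787). Its neighbour Slco1a4, which carries organic anions, lies 235.3 kb away on chromosome 6 and stood at 5.05, 4.81 and 4.43 FPKM against 6.81, 6.15 and 7.01. Here the groups were compact and the ratio was 1.40 (adjusted p = 0.0579).

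Abcb1a, which encodes the efflux pump P-glycoprotein, stood at 4.67, 4.40 and 3.79 FPKM in control tissue, against 5.92, 5.53 and 6.51 after knockdown, also 1.40-fold (adjusted p = 0.0744). A close relative, Abcb1b, could share some reads with Abcb1a, and 10.1% of the exon bases of Abcb1a overlap Gm42686 on the other strand. Abcg2, another efflux pump, stood at 1.25-fold, with its highest control at 1.99 FPKM and its lowest knockdown value at 2.10 (adjusted p = 0.256).

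Slc2a1 (GLUT1), the glucose transporter of the barrier, showed no separation: 40.4, 31.5 and 35.6 FPKM in control tissue, against 36.9, 48.9 and 31.3 after knockdown. It was second only to Bsg among the members in the controls, and its log2 fold change was 0.10 (SE 0.17, adjusted p = 0.761). Mfsd2a, which carries lipid-borne omega-3 fatty acids and suppresses vesicle traffic in brain endothelium, stood at 16.7, 12.8 and 14.5 FPKM against 13.3, 14.6 and 12.5. The groups lay within each other's range, with a log2 fold change of −0.11 (SE 0.11, adjusted p = 0.591). That value stayed between −0.20 and −0.02 whichever sample was left out. The windows of Slc2a1 and Mfsd2a printed above hold no AGGAAG, but Nostrin, Egfl7, Emcn and Ly6c1, whose groups also overlapped, have a match. Tek, whose groups were separated, has a window without one. Bsg, or basigin, a partner of lactate carriers made by many cell types, was the most abundant member at 189, 204 and 257 FPKM against 290, 263 and 231, and its groups overlapped (1.21-fold, adjusted p = 0.279).

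Among surface and secreted proteins, Ly6a (Sca-1), a surface protein anchored in the outer leaflet that marks mouse endothelium, stood at 20.2, 17.7 and 18.1 FPKM in control tissue, against 26.5, 27.3 and 26.7 after knockdown. The knockdown samples almost coincided, well above the controls. Ly6a rose 1.44-fold (log2 fold change 0.50, SE 0.07, adjusted p = 0.0432 by limma), with an adjusted p of 0.0319 to 0.203 over the alternatives. The call was lost with each of the 6 samples left out in turn, in fits that called 0 to 160 genes higher over the whole table. The log2 fold change of Ly6a was then 0.47 to 0.56. Its relative Ly6c1, 46.0 kb away on chromosome 15 and similar enough that reads could be shared, stood at 19.7, 16.2 and 19.0 FPKM against 19.3, 25.8 and 20.7, with overlapping groups (1.20-fold, adjusted p = 0.284).

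Podxl, a sialomucin of the luminal surface, stood at 5.71, 5.59 and 6.41 FPKM in control tissue, against 8.26, 7.77 and 9.37 after knockdown (1.43-fold, adjusted p = 0.0579). Itm2a, a membrane protein of uncertain role in endothelium, stood at 23.7, 17.6 and 21.3 against 26.6, 26.5 and 45.4. Knockdown sample 3 was the highest: without it the log2 fold change was 0.34, against 0.60 with all samples (adjusted p = 0.163). Vwf, the clotting protein stored by endothelium of larger vessels, had the same sample highest, at 3.99 FPKM against 1.77 to 2.49 in the other 5 samples. Without it the log2 fold change of Vwf was 0.11, against 0.31 with all samples (adjusted p = 0.375). Egfl7, a secreted protein whose introns hold the endothelial microRNA miR-126, and Emcn, a sialomucin of veins and capillaries, stood at 1.31-fold and 1.36-fold with overlapping groups.

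Nitric oxide genes gave opposite signs. Nos3, the endothelial nitric oxide synthase, stood at 0.870, 0.842 and 0.835 FPKM in control tissue, against 1.75, 1.18 and 1.89 after knockdown, 1.89-fold (adjusted p = 0.110). The controls were nearly identical, and 25.2% of its exon bases are shared with Gm15587 on the other strand. Nostrin, an adaptor that removes Nos3 from the membrane, stood at 3.63, 3.04 and 2.30 FPKM against 2.63, 4.17 and 1.67. Its groups were mixed, at 0.945-fold (log2 fold change −0.10, SE 0.25, adjusted p = 0.849).

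The adhesion proteins of activated endothelium included the 2 largest ratios of all 35, those of Icam1 and Vcam1. Vcam1, which holds leukocytes through their integrins and is also made by choroid plexus and by some astrocytes, stood at 4.11, 3.76 and 5.21 FPKM in control tissue, against 10.1, 9.68 and 8.80 after knockdown. The lowest knockdown sample was far above the highest control. Vcam1 (ENSMUSG00000027962, mm10 chromosome 3, 116109949 to 116129688, minus strand) rose 2.19-fold, with the largest log2 fold change of the members on this scale, 0.98 (SE 0.12, adjusted p = 0.0432 by limma, 0.0238 to 0.194 over the alternatives). Its call ended without control sample 1, 2 or 3, knockdown sample 1 or knockdown sample 3. Those fits called 0 to 16 genes higher over the whole table. With each sample left out in turn the log2 fold change of Vcam1 was 0.90 to 1.09. Icam1, the ligand of leukocyte integrins that inflammation induces and that microglia also express, stood at 1.28, 1.27 and 0.996 FPKM against 3.13, 1.89 and 2.84. Its ratio of 2.22 was above that of Vcam1, but its groups were wider (log2 fold change 0.72, adjusted p = 0.0660) and it was called without knockdown sample 2 (adjusted p = 0.0480) and with voom (0.0425). Of its exon bases 11.7% are shared with Gm47079 on the other strand. Plvap, which forms the diaphragms of leaky and fenestrated vessels and is low in mature barrier endothelium, stood at 4.20, 4.59 and 4.40 FPKM in control tissue, against 5.79, 4.09 and 2.28 after knockdown. The knockdown samples spanned the controls on both sides (0.922-fold, adjusted p = 0.747), and without knockdown sample 3 the log2 fold change turned from −0.16 to 0.12.

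**Figure D3:**
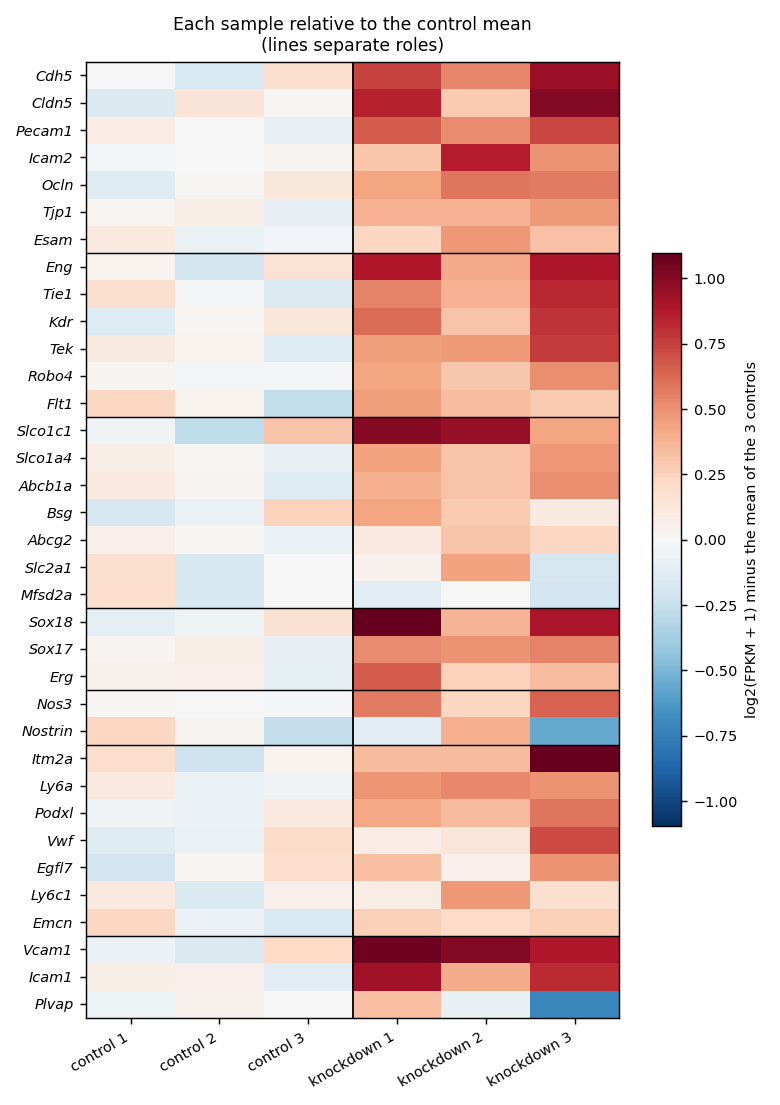
Each of the 35 genes in each sample, as log2(FPKM + 1) minus the mean of the 3 controls, in rows grouped by role. The 3 knockdown columns are mostly red, with medians over the genes of 0.44, 0.38 and 0.51 against 0.04, −0.01 and −0.01 in the controls; Mfsd2a, Nostrin and Plvap hold the blue cells of knockdown sample 3 together with Slc2a1.

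The knockdown samples resembled each other over the members as a set. The median deviation from the control mean was 0.44, 0.38 and 0.51 in knockdown samples 1 to 3, and 0.04, −0.01 and −0.01 in controls 1 to 3. Knockdown sample 3 held the highest knockdown value of 18 members, sample 2 of 9 and sample 1 of 8. The receptors had their highest median in sample 3, with 0.50, 0.36 and 0.78 in samples 1 to 3. Transporters had their lowest there, with 0.39, 0.31 and 0.23. All 35 genes reached the mean of 1 FPKM needed for testing, although 4 of them (Sox17, Nos3, Icam2 and Emcn) were below 1 FPKM in the controls and passed through their knockdown values.

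Choroid plexus tissue differed between the samples, and a few of these genes followed it. Ttr, the main transcript of the choroid plexus epithelium, stood at 43.2, 60.2 and 2983 FPKM in control tissue, against 4523, 4208 and 1151 after knockdown, so control sample 3 exceeded knockdown sample 3. All 14 choroid plexus markers tested had positive log2 fold changes (median 1.75) with overlapping groups, 0 of 14 was called, and their summed level was 108 to 3595 FPKM in the controls and 1488 to 5458 in the knockdown samples, with no marker at 0. Bsg followed the order of Ttr through all 6 samples and was the only member to do so. Slco1c1 was likewise highest in knockdown samples 1 and 2 and, among the controls, in control sample 3.

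With the choroid plexus score as a second term in the fit, the log2 fold change of Slco1c1 was 0.40 in place of 0.79, that of Bsg −0.003 in place of 0.27, and that of Vcam1 0.77 in place of 0.98 (adjusted p = 0.194). The values of Tie1 and Tek were larger with the term, at 0.81 and 0.76 against 0.58 and 0.56, and that of Pecam1 was 0.74 against 0.64. The median over the members was 0.51 with the term and 0.45 without it. No gene of the table was called in that fit, which has 1 fewer degree of freedom. Knockdown sample 3 against control sample 3 is the pairing in which the choroid plexus markers ran against the group difference. In that pairing 30 of the 35 members were higher in the knockdown sample, where 53.3% of all genes tested were, and their median log2 difference was 0.53, with 0.12 for Slco1c1, −0.16 for Bsg and −0.72 for Plvap. This is 1 library against 1, with no test. Knockdown sample 3 also had the highest summed pericyte and smooth muscle markers of all samples, at 209 FPKM against 121 in control sample 3. The same held for fibroblast and meningeal markers, at 759 against 656 FPKM. Their part in this pairing was not tested.

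**Figure D4:**
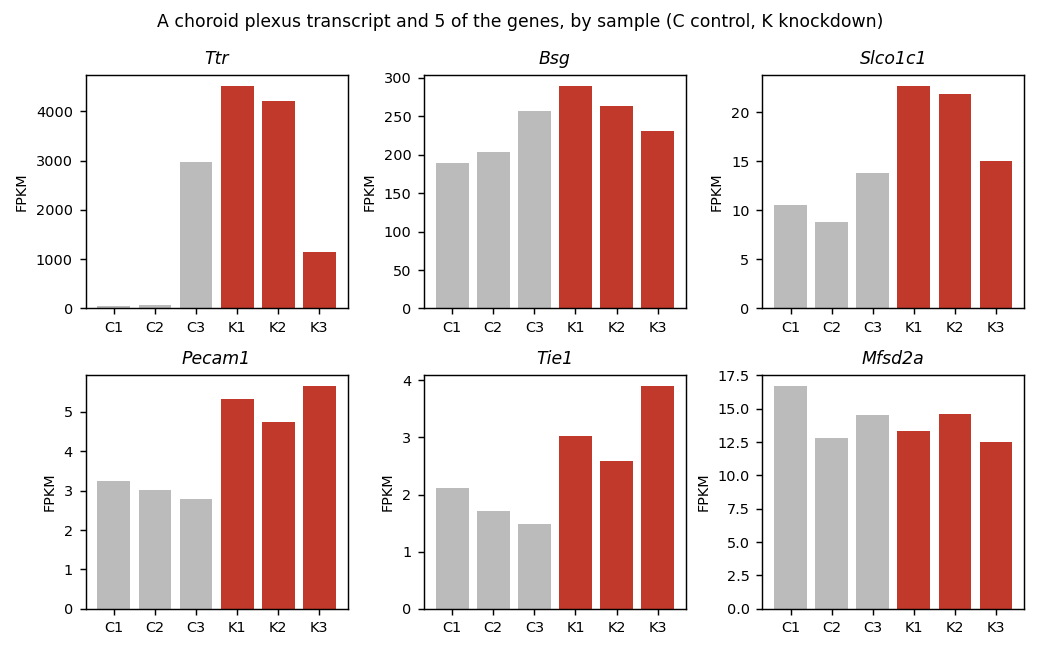
FPKM in each sample (C1 to C3 control, K1 to K3 knockdown) of Ttr, a choroid plexus transcript, and of 5 of the 35 genes, with axes from 0. Bsg follows the order of Ttr, Slco1c1 does so in part, Pecam1 and Tie1 are higher in every knockdown sample, and Mfsd2a shows no separation.

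Other cell types of the vessel wall and its surroundings had values in the same direction. All 15 pericyte and smooth muscle markers tested were above 0 in log2 fold change (median 0.50), and 12 had separated groups, but 0 were called. Over all genes tested 18.0% were separated higher and 1.20% called higher, and the counts of the lists that follow are to be read against these shares. Rgs5, a pericyte marker, stood at 1.71-fold (adjusted p = 0.05003), and the summed level of the list was 88.2 to 121 FPKM in the controls and 150 to 209 in the knockdown samples. Fibroblast and meningeal markers had a median of 0.73 with 0 of 15 called and 7 separated, and their sums overlapped, at 187 to 656 against 386 to 759 FPKM. Microglial markers had a median of 0.54, 0 of 15 called and 12 separated, with sums of 313 to 404 against 507 to 799 FPKM. The part of these cells in the members' values was not tested.

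Astrocyte markers had a median of 0.09, and went both ways: 2 of 16 were called higher, 5 were separated higher, 2 separated lower and 4 had negative values. Gja1, a gap junction protein, and Aqp4, the water channel of the endfeet that wrap vessels, rose 1.70-fold and 2.64-fold (adjusted p = 0.0432 and 0.0452 by limma). Ntsr2, a neurotensin receptor of astrocytes, stood at 0.702-fold (adjusted p = 0.0677) and Aldoc, a glycolytic enzyme, at 0.740-fold (adjusted p = 0.143), both with every knockdown sample below the controls. Neuronal markers had a median of −0.18 and 0 of 15 called, with 5 separated lower, against 11.8% of all genes, and 1 separated higher. Their summed level overlapped, with sums of 1856 to 1897 FPKM in the controls and 1612 to 1912 in the knockdown samples. Of the blood list 4 of 12 genes reached the filter, with 0 called and 1 separated higher: Pf4, a platelet gene, stood at 1.41-fold (adjusted p = 0.272). Cd79a, a B cell gene, stood at 2.76-fold with overlapping groups, Hbb-bs, an adult haemoglobin gene, at 1.04-fold and Hba-a1 at 0.801-fold. The summed level of the blood list was 5.84 to 8.43 FPKM in the controls and 7.52 to 11.4 in the knockdown samples, with Hba-a2 and Ppbp at 0 in at least 1 sample.

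Further endothelial genes outside the 35 gave a similar picture. Of 30 listed, 20 reached the filter, 18 had positive log2 fold changes and 13 had separated groups, with a median of 0.48. Tm4sf1, a small membrane protein of vessels, rose 1.78-fold, Adgrf5, an adhesion receptor, 1.49-fold, and Pltp, the phospholipid transfer protein that brain endothelium and other cells make, 2.23-fold (adjusted p = 0.0432, 0.0452 and 0.0432 by limma). Cd93, a lectin-like receptor of endothelium, stood at 2.16-fold.

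The signals that act on these receptors were measured too. Of 23 angiogenic ligands and coreceptors 17 reached the filter, with 2 called higher, 0 lower and a median of 0.30. Tgfbr2, the type II receptor for TGF-beta, rose from 3.22 ± 0.250 to 6.46 ± 1.18 FPKM, and Acvrl1 (ALK1), the endothelial BMP receptor that works with endoglin, from 2.57 ± 0.124 to 4.28 ± 0.442 (SD, n = 3; adjusted p = 0.0452 and 0.0472 by limma). Ptprb, the phosphatase that dampens TIE2, stood at 1.55-fold and did not pass. Among the 17 genes 13 had positive and 4 negative log2 fold changes, and 7 were separated higher, against 18.0% of all genes tested. The ligands Vegfa, Vegfb and Pgf were among the negative ones, at 0.924-fold, 0.960-fold and 0.914-fold with overlapping groups. In the Wnt pathway of the barrier 17 of 20 genes reached the filter, with a median of 0.33, and Fzd6, a frizzled receptor, was the only call, at 1.97-fold. Nkd1, a feedback target, stood at 1.89-fold (adjusted p = 0.0579) and Ctnnb1, which encodes beta-catenin, at 1.28-fold (adjusted p = 0.0668). Of the 17 genes 9 were separated higher, 2 had negative values and 1 was separated lower. The ligand Wnt7b was the separated lower one, at 0.798-fold (adjusted p = 0.143), and Wnt7a, its relative, stood at 0.883-fold with overlapping groups.

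Partners of the junction proteins had positive values throughout. All 15 tested were above 0, with a median of 0.40, 7 separated and 0 called, among them Jam2, a junctional adhesion molecule, at 1.60-fold, F11r (JAM-A) at 2.09-fold and Ctnna1, which encodes alpha-catenin, at 1.42-fold (adjusted p = 0.0542, 0.0579 and 0.0569). Further barrier transporters went both ways. Of 23 tested 18 were positive, 13 had separated higher groups (18.0% of all genes did) and 3 separated lower ones (11.8% of all genes), with a median of 0.24 and 0 called. The separated lower ones were Tfrc, the transferrin receptor, at 0.680-fold (adjusted p = 0.0938), Abcc5 at 0.850-fold and Slc7a1, a carrier of cationic amino acids, at 0.834-fold. Slc16a1 (MCT1), the lactate carrier that pairs with basigin, stood at 9.62, 12.4 and 9.18 FPKM in control tissue, against 16.6, 15.8 and 19.3 after knockdown (adjusted p = 0.05003). Genes of leukocyte trafficking had a median of 0.17 over 15 tested with 0 called, with Tnfrsf1a, the receptor through which TNF induces adhesion proteins, at 1.94-fold (adjusted p = 0.05003) and Itgb2, the leukocyte integrin chain that binds Icam1, at 2.37-fold (adjusted p = 0.0781). Of the 15 genes 7 were separated higher, 4 had negative values and 1 was separated lower: Ackr1, a chemokine-binding receptor of venules, at 0.817-fold (adjusted p = 0.145). Il1r1, the interleukin-1 receptor, stood at 0.754-fold with overlapping groups (adjusted p = 0.249).

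**Figure D5:**
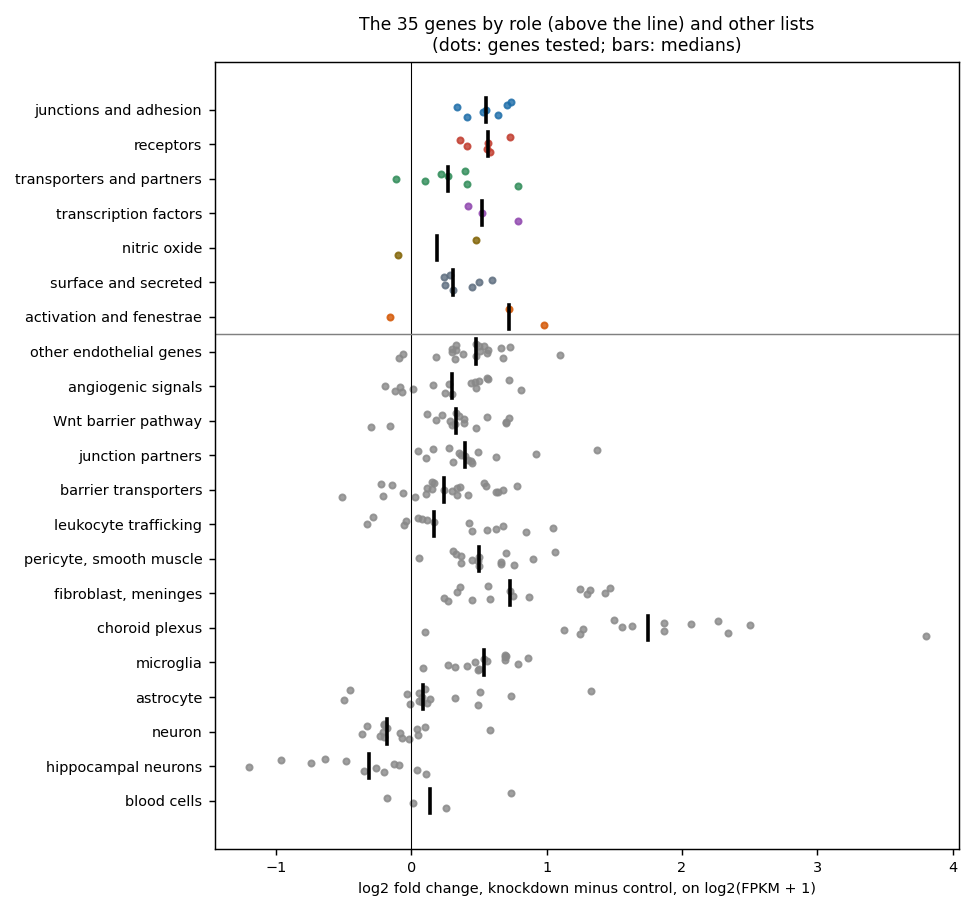
Log2 fold changes of the 35 genes by role (coloured, above the line) and of the other lists (grey), with dots for genes and bars for medians. Medians of the roles run from 0.19 for the nitric oxide genes to 0.72 for the activation and fenestrae genes, and the choroid plexus markers at 1.75 lie apart from the other lists.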

How the data were processed

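RNA of mouse hippocampus was measured in 6 samples, 3 per group, taken from the sample titles. Per the labels' protocols, 1.5 µg of RNA went into poly(A) selection and fragments of about 350 bp were kept. The authors deposited FPKM values per gene, and per the submitters' processing notes the build was mm10; which aligner and counter were used is not given in the sources used here. Multiplied by exon length (GENCODE M21), FPKM gave whole reads for 90.9% to 91.0% of values above 0 in most samples and 91.1% in the other (within 0.01 reads of a whole number), and from it the library totals of 16622948 to 18097344 reads. For 34 of the 35 genes all 6 values were whole. At these depths 1 read on 1 kb of exon was worth 0.0553 to 0.0602 FPKM, and intervals from depth would cover counting error alone. The 14012 genes whose mean over all samples reached 1 FPKM entered a limma fit (3.58.1, R 4.3.3) on log2(FPKM + 1), with group as the only term, a trended prior variance and two-sided tests, and an adjusted p under 0.05 (Benjamini-Hochberg over all genes) was called. The pseudocount of 1 understates the change of low genes. Ratios are of group means in FPKM. The procedure was tested on simulated data with the same spread for every gene. That test does not measure how reliable the calls made here are. The members and the other lists were chosen with earlier results of these data known, so no test of a list as a whole was made, and counts and medians are given beside those of all genes. All 35 genes are accounted for. Called genes and those of smallest p or of extreme fold change within a role are given sample by sample. Up to 3 genes of smallest p per other list are named. Abcc5, Ackr1, Aldoc, Cd93, Hbb-bs, Il1r1, Pgf, Slc7a1, Tfrc, Ttr, Vegfa, Vegfb, Wnt7a and Wnt7b are named besides, chosen after their values were seen. Promoter letters come from RefSeq windows of GRCm38.p6. Alternatives were other pseudocounts, filters, scalings and variance settings, voom on recovered reads, a replicate block, a choroid plexus term, each sample left out, and an adjusted p of 0.1; the pairing of knockdown sample 3 with control sample 3 was chosen after seeing the data.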

Additional observations from a re-analysis of the deposited data

How the results depend on the processing

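The number of the 35 genes called higher was 3, and none was called lower under any setting tried. It was 6 with a pseudocount of 0.1 or 0.5 (290 and 274 genes called higher in the whole table), 14 with voom on the recovered reads (498 in the table), and 19 at an adjusted p under 0.1 (983). It was 0 with no filter on low values, after quantile normalization, under a constant prior variance, and with a choroid plexus score in the fit, each of which called 0 genes in the whole table, and 0 after scaling to the same FPKM sum (1 gene in the table). With a sample left out it ran from 0 to 6 (0 to 160 genes in the table). The causes were not tested. The replicate block also gave 0, with 0 genes called in the table; same-numbered samples deviated together at r = 0.05, 0.04 and −0.01, and control sample 2 correlated best with knockdown sample 3, so the numbers were not taken to pair the samples. The median log2 fold change of the members, 0.45, was positive throughout: 0.62 and 0.51 with pseudocounts of 0.1 and 0.5, 0.38 after quantile normalization, 0.57 with voom, 0.51 with the choroid plexus term, 0.53 for knockdown sample 3 against control sample 3, and 0.40 to 0.49 with a sample left out. Of the single genes, 31 kept their sign under every setting. With the choroid plexus term Bsg turned to −0.0031 and Slc2a1 to −0.0092. With a sample left out Slc2a1 ran from −0.067 to 0.25, Nostrin from −0.34 to 0.13 and Plvap from −0.40 to 0.12; the sign turned for Slc2a1 without knockdown sample 2, for Nostrin without control sample 1 (0.014) or knockdown sample 3, and for Plvap without knockdown sample 3. Depth limits Icam2 most, with 22 to 66 reads per sample.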

Other observations

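Several of the 35 genes lie near each other. Robo4 and Esam are 113.0 kb apart on chromosome 9, Pecam1 and Icam2 266.1 kb apart on chromosome 11, and Slc2a1 and Tie1 618.6 kb apart on chromosome 4. Neighbours did not always have like values: Ly6a rose while Ly6c1 stood at 1.20-fold with overlapping groups, and Tie1 stood at 1.79-fold with separated groups beside Slc2a1 at 1.09-fold with overlapping ones. These differences between neighbours were not tested.

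Exons of 8 of the genes overlap exons of another annotated gene. The largest shares were 25.2% for Nos3 with Gm15587, 16.8% for Sox17 with Gm37587, 11.7% for Icam1 with Gm47079 and 10.1% for Abcb1a with Gm42686, all on the other strand.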
